A study of Arabidopsis thaliana with 6 samples.

Results

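Cytosolic ribosomal protein genes encode the protein part of the ribosome that translates nuclear-encoded transcripts. The set described here holds 54 nuclear genes of the RPS, RPL and RPP families, chosen by locus identifier and not by their values. By RefSeq annotation 21 encode proteins of the small subunit, 27 of the large subunit without its stalk, and 6 of the stalk. In the table of 16967 genes 53 of the 54 were found, and all 53 passed the filter on low values and were tested. RPL27AB (AT1G23290) was not analysed here.

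Seeds of Arabidopsis thaliana were taken 8 days after pollination, and their total RNA was sequenced. One group was the wild type Col-0, the standard laboratory accession. The other was tt7-7, a mutant in the same accession whose affected gene, TT7, encodes flavonoid 3'-hydroxylase, an enzyme of flavonoid synthesis. Each genotype had 3 samples, and tt7-7 is a single allele. The labels do not say whether the samples came from separate plants, so p-values measure the spread between these samples. Levels are RPKM, reads per kilobase of transcript, scaled to the library total, so levels of different genes can be compared per length.

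A plant ribosome carries 1 copy of each core ribosomal protein, but in Arabidopsis most of these proteins are encoded by small families of paralogues. The small subunit decodes the transcript and the large subunit joins the amino acids. The stalk, a part of the large subunit made of P0 and the acidic P1 and P2 proteins, recruits elongation factors. Its genes are counted apart from the other large-subunit genes here. Ribosomal protein genes are known for high expression in dividing tissue, and many mutants in them are embryo-lethal or have pointed leaves. The kinase TOR is known to raise ribosome production when nutrients allow growth.

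Recovered library totals ranged from 13677094 to 20547689 reads. TT7 lay at 239.9 to 499 RPKM in Col-0 and at 86.0 to 103 RPKM in tt7-7. The libraries differed widely outside the ribosomal genes. The 9 storage protein and oil body markers, all in the table, summed to 19865 to 127376 RPKM in Col-0 and 915 to 6030 RPKM in tt7-7, with the highest sum in Col-0 replicate 3. The 3 seed coat markers, genes of flavonoid synthesis like TT7, summed to 129 to 521 RPKM against 1045 to 1462 RPKM. In them the amount of seed coat and a change in that pathway cannot be told apart. The 3 embryo regulators summed to 117 to 169.7 RPKM against 147 to 168 RPKM. Their median level was 23.7 to 30.7 RPKM against 37.6 to 54.0 RPKM, without overlap. Of 4 endosperm markers 2 were in the table, at 2.58 to 7.22 RPKM against 9.34 to 18.6 RPKM. Of 3 silique wall markers 2 were in the table, at 13.4 to 15.7 RPKM against 35.1 to 47.1 RPKM. None of the markers found was at 0. The 100 genes with the most reads took 24.0% to 33.7% of the reads in Col-0 and 15.6% to 16.4% in tt7-7. The part of these differences in the results below was not tested.

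Ribosomal protein transcripts were abundant and spread over a wide range. Of all reads, the members together took 1.46%, 1.53% and 1.19% in the Col-0 libraries, in replicate order, and 1.30%, 1.23% and 1.11% in the tt7-7 libraries. All values per sample below are in that order. The genotypes overlapped in that share. With the 100 most-read genes left out of the total, the share was 1.92%, 2.08% and 1.79% in Col-0 and 1.56%, 1.46% and 1.32% in tt7-7, and there the genotypes did not overlap. In bulk seeds, fewer cells of a type and less RNA per cell cannot be told apart. Over the 6 samples the mean level of a member ranged from 3.95 to 585 RPKM, with a median of 216. Means of at least 100 RPKM were found for 40 members, and 7 lay under 30 RPKM.

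**Figure D1:**
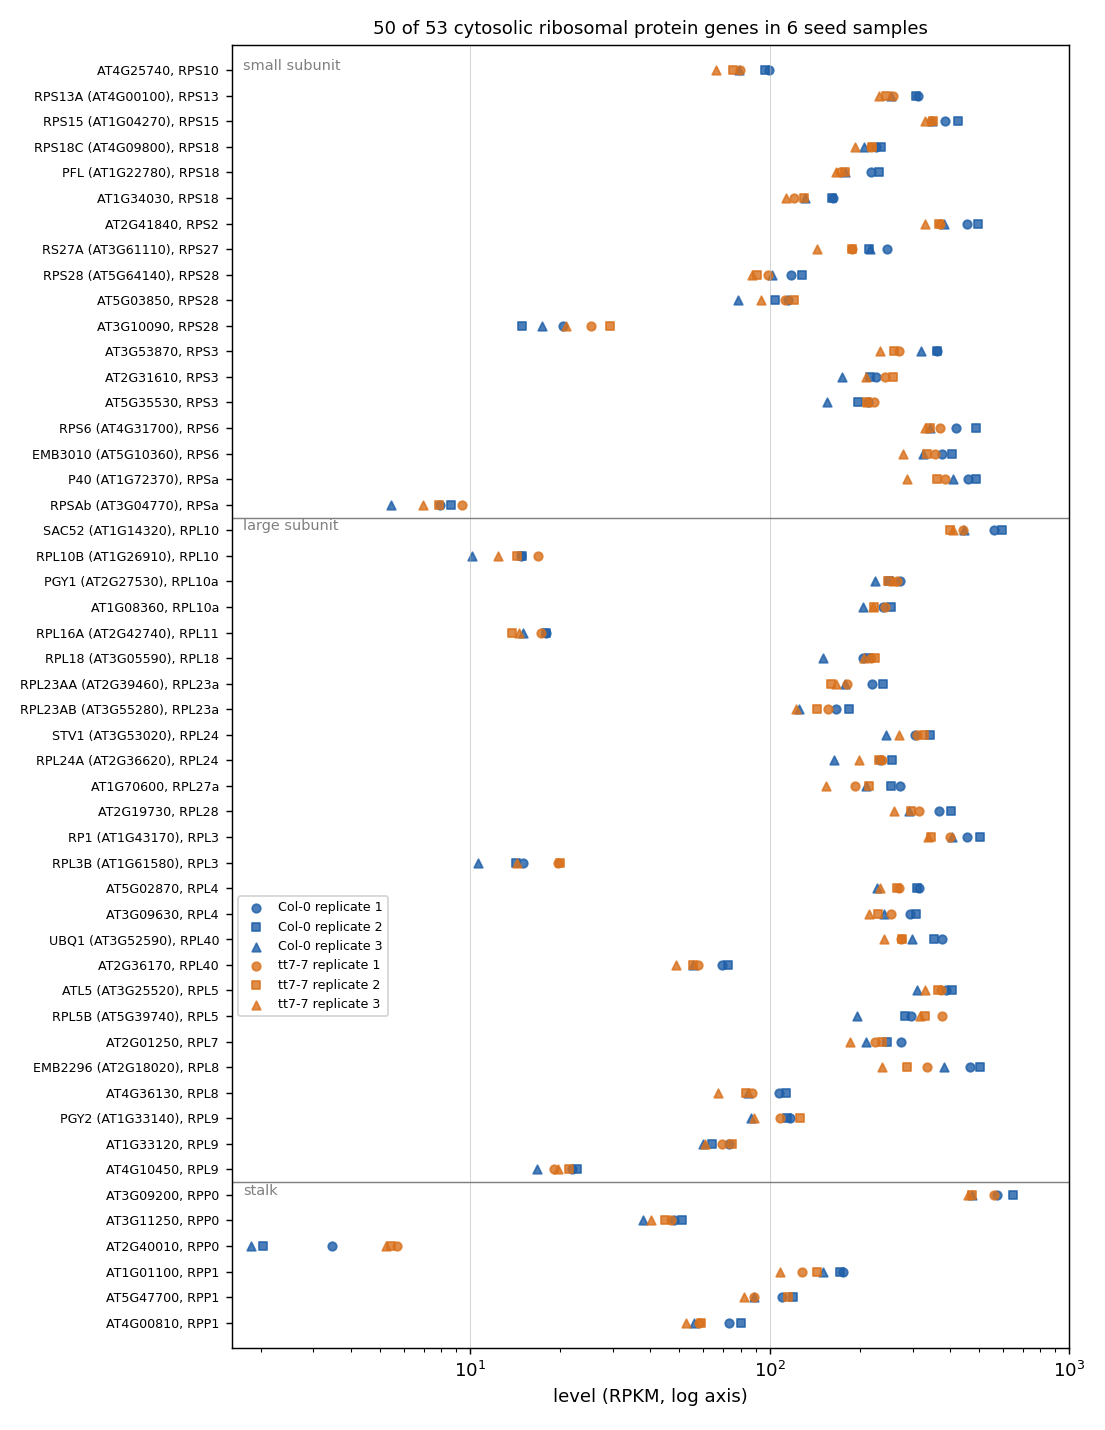
Level of 50 of the 53 members in RPKM (log axis) in the 3 Col-0 samples (blue) and the 3 tt7-7 samples (orange), grouped by subunit and family; marker shapes give the replicate number. Most members lie between 100 and 700 RPKM with overlapping genotypes, 7 lie under 30 RPKM, and replicate 3 is the lowest of its group for 51 of all 53 members in Col-0 and 47 in tt7-7.

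Among the members with the highest mean level were AT3G09200 of the RPP0 family and SAC52 (AT1G14320) of the RPL10 family. AT3G09200 encodes P0, the base of the stalk, and stood at 574, 649.9 and 474 RPKM in Col-0 and at 563, 473 and 458 RPKM in tt7-7, with overlapping groups. SAC52, known from a suppressor of the dwarf mutant acaulis5, stood at 562, 598 and 444 RPKM in Col-0 and at 442, 399 and 410.0 RPKM in tt7-7, with every tt7-7 value below every Col-0 value. It did not pass the test (log2 fold change -0.35, limma adjusted p 0.110). The lowest members were AT2G40010 of the RPP0 family, RPSAb (AT3G04770) of the RPSa family and RPL10B (AT1G26910), all paralogues of abundant members. RPSAb stood at 7.91, 8.64 and 5.44 RPKM in Col-0 and at 9.37, 7.88 and 6.95 RPKM in tt7-7. RPL10B stood at 14.7, 14.9 and 10.1 RPKM against 16.9, 14.4 and 12.4 RPKM. Both overlapped between genotypes.

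The members were high or low in the same samples. Col-0 replicate 3 had the lowest Col-0 value for 51 of the 53 members, and tt7-7 replicate 3 the lowest tt7-7 value for 47. The median within-group SD of log2(RPKM + 1) was 0.18 over the members on the deposited scale, and 0.087 once each sample was centred on the members' own mean. Over all tested genes it was 0.19 before and 0.19 after that centring. Centring on the members' own mean removes what they share, so a fall in their SD is built in. How often replicate 3 was lowest over all tested genes is not given here. Col-0 replicate 3 was also the sample with the highest storage protein level, and the part of that level in its low ribosomal values was not tested.

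On the deposited scale few members were called different between the genotypes. Of the 53 members 5 were below a limma adjusted p of 0.05, adjusted over all tested genes, 2 higher and 3 lower in tt7-7. Over all 16663 tested genes 59.6% passed, 51.1% higher and 8.47% lower, beside 9.43% of the members. At an unadjusted p under 0.05 there were 11 members, where at least the 59.6% of all tested genes that passed after adjustment also lay. The median log2 fold change of the members was -0.18, beside 0.44 for all tested genes, and 51 of the 53 lay below the latter. In this fit of log2(RPKM + 1) no member changed by 1 or more, compared with 20.4% of all tested genes. With 0.1 RPKM added in place of 1, AT2G40010 was at 1.18. Under median-ratio scaling the lowest member was at -1.18. High genes had a lower median in general. The 1067 tested genes with a mean of at least 100 RPKM had a median of -0.18, with 43.0% of them called. The 40 members at that level had a median of -0.19, with 7.5% called. The groups did not overlap for 15 members, 12 lower and 3 higher in tt7-7, where 66.2% of all tested genes did not overlap, 9.97% lower and 56.2% higher. These counts are for the deposited scale. Median-ratio scaling called 43 members lower and 1 higher, beside 27.6% and 26.3% of all tested genes.

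**Figure D2:**
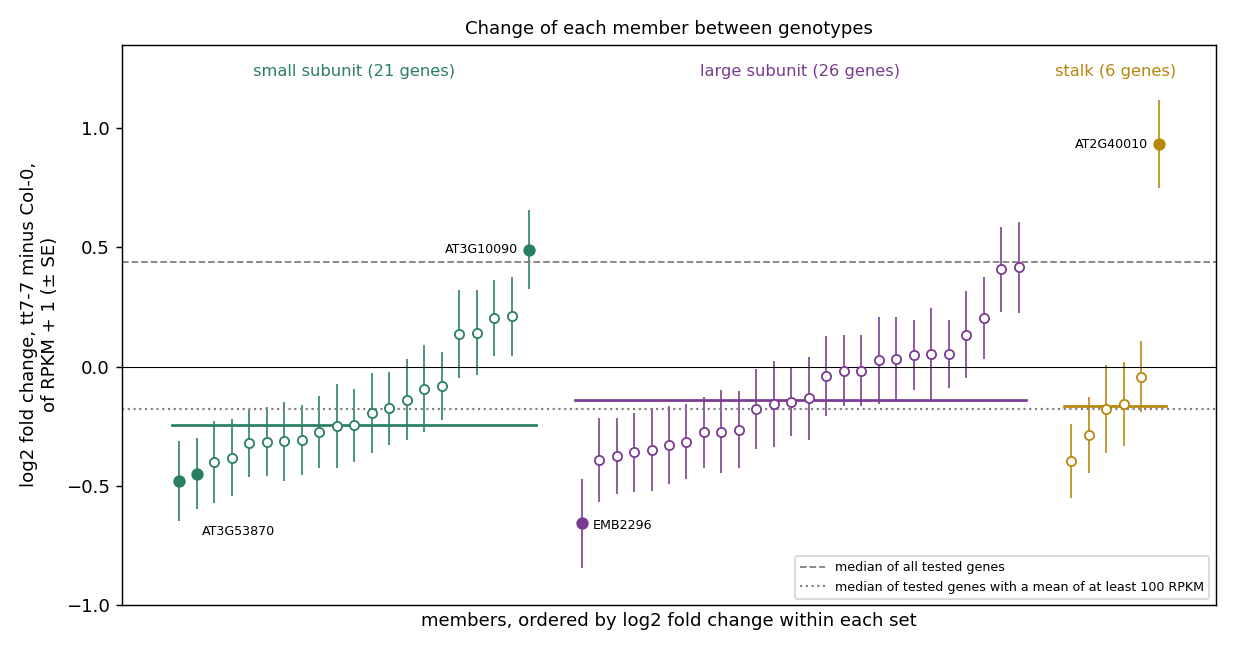
Log2 fold change of RPKM + 1, tt7-7 minus Col-0, for each member with its standard error, ordered within the small subunit, the large subunit and the stalk; filled points passed a limma adjusted p of 0.05, coloured lines are the medians of the sets, and grey lines the medians of all tested genes (dashed, 0.44) and of those with a mean of at least 100 RPKM (dotted, -0.18). The 5 filled points are 3 lower and 2 higher members, and nearly all members lie below the dashed line.

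Among the small-subunit proteins, AT3G53870 of the RPS3 family fell. RPS3 lies at the entry of the transcript channel of the small subunit, and its family held 3 members at similar levels. AT3G53870 stood at 363, 362 and 321 RPKM in Col-0 and at 271, 261 and 234 RPKM in tt7-7. Every tt7-7 sample lay below every Col-0 sample. On the log2 scale the change was -0.45 (SE 0.15, limma adjusted p 0.0268). AT2G31610 stood at 227, 217 and 174 RPKM against 244, 259 and 209.9 RPKM, and AT5G35530 at 213, 197 and 155 RPKM against 223, 211 and 211 RPKM. Both had log2 fold changes above 0, of 0.21 and 0.20, with overlapping groups and limma adjusted p-values of 0.294 and 0.296. The AT3G53870 call held without Col-0 replicate 3 and was lost without any other single sample, with limma adjusted p-values of 0.051 to 0.094. It was also lost with the length trend removed (-0.18, adjusted p 0.332) and under quantile normalization (-0.14, adjusted p 0.366). Under median-ratio scaling AT2G31610 was at -0.31 and AT5G35530 at -0.32, so their direction rested on the scaling.

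Because the RPS3 paralogues differed in change between genotypes, their upstream sequences are shown. Each is the 250 bases before the annotated transcript start in RefSeq TAIR10.1, written 5' to 3' on the gene's strand, with matches to site II (TGGGCC or TGGGCT) in capitals. Site II and a further plant promoter motif, the telo box (AAACCCTA), were searched on both strands, and both are known from promoters of ribosomal protein and cell cycle genes. Adjacent or overlapping matches run together. AT3G53870 lies on the plus strand at chr3:19951174-19951423, AT2G31610 on the plus strand at chr2:13449991-13450240 and AT5G35530 on the minus strand at chr5:13712289-13712538.
AT3G53870: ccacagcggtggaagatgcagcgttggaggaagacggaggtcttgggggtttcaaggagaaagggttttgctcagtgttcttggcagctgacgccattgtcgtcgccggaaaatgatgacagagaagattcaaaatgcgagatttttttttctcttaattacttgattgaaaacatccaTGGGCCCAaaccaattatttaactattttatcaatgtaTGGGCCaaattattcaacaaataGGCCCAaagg
AT2G31610: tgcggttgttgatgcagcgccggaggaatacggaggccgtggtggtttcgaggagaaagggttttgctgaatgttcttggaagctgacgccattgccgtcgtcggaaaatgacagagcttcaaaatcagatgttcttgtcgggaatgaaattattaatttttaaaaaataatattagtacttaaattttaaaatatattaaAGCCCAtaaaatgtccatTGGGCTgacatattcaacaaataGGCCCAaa
AT5G35530: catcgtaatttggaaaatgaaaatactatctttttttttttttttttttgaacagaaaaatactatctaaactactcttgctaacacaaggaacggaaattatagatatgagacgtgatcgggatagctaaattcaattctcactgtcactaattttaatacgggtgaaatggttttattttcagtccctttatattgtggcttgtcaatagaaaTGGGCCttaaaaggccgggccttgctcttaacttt

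AT3G53870 had 4 site II matches, AT2G31610 had 3 and AT5G35530 had 1, and none of the 3 had a telo box. These are letter matches, not shown binding sites. Over windows from 250 bases before to 50 bases after the start, 43.4% of the 53 members held a telo box, compared with 5.67% of 16554 tested nuclear genes. Site II was found in 73.6% of the members and 27.1% of those genes, and both motifs in 32.1% and 2.60%. Site II was present in 11 of 21 small-subunit members (52.4%), 22 of 26 large-subunit members (84.6%) and 6 of 6 stalk members. The 39 members with site II had a median log2 fold change of -0.16 and the 14 without it -0.26. The 23 members with a telo box had a median of -0.19 and the 30 without one -0.17.

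The RPS28 family held a member that rose. RPS28 is a very small protein of the small subunit. AT3G10090 stood at 20.4, 14.9 and 17.4 RPKM in Col-0 and at 25.3, 29.2 and 20.9 RPKM in tt7-7, on 110 to 317 reads per library. The lowest tt7-7 value was just above the highest Col-0 value. On the log2 scale the change was 0.49 (SE 0.17, limma adjusted p 0.0300). Under median-ratio scaling it was -0.0058 (limma adjusted p 0.978), so its direction rested on the scaling. The call was also lost when Col-0 replicate 2, Col-0 replicate 3, tt7-7 replicate 1 or tt7-7 replicate 2 was left out, under quantile normalization (0.088, limma adjusted p 0.666) and under scaling outside the 100 highest genes (0.28, limma adjusted p 0.174). The gene named RPS28 (AT5G64140) was at -0.32 (limma adjusted p 0.0756) and AT5G03850 at 0.14 (limma adjusted p 0.515).

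The small-subunit members named next did not pass. P40 (AT1G72370), the plant homologue of the laminin receptor precursor and a protein of the RPSa family, stood at 459, 487 and 410.0 RPKM in Col-0 and at 384, 361 and 287 RPKM in tt7-7. Its groups did not overlap, and its log2 fold change was -0.40 (limma adjusted p 0.0725). RS27A (AT3G61110) was at -0.38, AT2G41840 of the RPS2 family at -0.31 and AT4G25740 of the RPS10 family at -0.31. The RPS6 pair, RPS6 (AT4G31700) and EMB3010 (AT5G10360), encodes the substrate of the TOR-dependent S6 kinases. RPS6 had a log2 fold change of -0.25 and EMB3010 of -0.19, with overlapping groups in both. RPS13A (AT4G00100) was at -0.25 and RPS15 (AT1G04270) at -0.18. In the RPS18 family PFL (AT1G22780), named for the pointed first leaves of its mutant, was at -0.27, AT1G34030 at -0.31 and RPS18C (AT4G09800) at -0.080.

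In the large subunit EMB2296 (AT2G18020) had the largest fall of any member. It encodes an RPL8 protein, which lies at the peptidyl transferase centre, and its name records an embryo-defective mutant. EMB2296 stood at 467, 502 and 384 RPKM in Col-0 and at 335, 289 and 236 RPKM in tt7-7. The highest tt7-7 value was below the lowest Col-0 value. On the log2 scale the change was -0.66 (SE 0.19, limma adjusted p 0.0139), and 5.43% of all tested genes had a value as low or lower. Its paralogue AT4G36130 stood at 107, 114 and 84.8 RPKM against 87.3, 83.2 and 67.1 RPKM, a log2 fold change of -0.36 (limma adjusted p 0.0887). The EMB2296 call was lost without Col-0 replicate 2 (-0.58, limma adjusted p 0.0527), with the GC trend removed (-0.38, adjusted p 0.0798), with the length trend removed (-0.41, adjusted p 0.0928) and under quantile normalization (-0.27, adjusted p 0.212). Of the AT4G36130 transcript, 21.4% of 50-base windows also lie in the overlapping gene AT4G36140, so its reads are less certain.

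The next changes in the large subunit were upward and did not pass. RPL5 proteins bind the small ribosomal RNA of the large subunit. RPL5B (AT5G39740) stood at 296, 284 and 196 RPKM in Col-0 and at 375, 329.7 and 317 RPKM in tt7-7. Every tt7-7 sample lay above every Col-0 sample, with a log2 fold change of 0.42 (limma adjusted p 0.0872). Its paralogue ATL5 (AT3G25520) was at -0.041 (limma adjusted p 0.848). RPL3 proteins lie close to the peptidyl transferase centre. RPL3B (AT1G61580) stood at 15.1, 14.3 and 10.7 RPKM against 19.6, 20.03 and 14.4 RPKM, with overlapping groups, a log2 fold change of 0.41 (limma adjusted p 0.0757). Under median-ratio scaling RPL5B was at -0.10 and RPL3B at -0.080, so their direction rested on the scaling. RP1 (AT1G43170), the abundant RPL3 gene, was at -0.33 (limma adjusted p 0.109).

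The remaining large-subunit members lay between -0.39 and 0.20. At the lower end were AT1G70600 of the RPL27a family at -0.39 and UBQ1 (AT3G52590), a fusion of ubiquitin to the RPL40 protein, at -0.37. RPL23AA (AT2G39460) and RPL23AB (AT3G55280), whose protein lies at the exit of the nascent chain, were at -0.32 and -0.16. The RPL4 genes AT3G09630 and AT5G02870 were at -0.26 and -0.13, AT2G19730 of the RPL28 family at -0.27, AT2G36170 of the RPL40 family at -0.28 and AT2G01250 of the RPL7 family at -0.18. Near 0 were RPL24A (AT2G36620) and STV1 (AT3G53020), at 0.053 and 0.033. STV1 is known to help ribosomes resume translation after short upstream reading frames. PGY1 (AT2G27530) of the RPL10a family was at 0.048 and AT1G08360 at -0.017. PGY2 (AT1G33140) and AT1G33120 of the RPL9 family were at 0.026 and 0.053. PGY1 and PGY2 are known from mutants that change leaf polarity. Coding sequences of PGY2 and AT1G33120 are 99.1% identical, and 54.2% and 53.4% of their 50-base transcript windows are shared, so the division of reads between them is uncertain. AT4G10450 of the same family was at -0.017. RPL16A (AT2G42740), an RPL11 protein despite its symbol, was at -0.15, RPL18 (AT3G05590) at 0.20 and RPL10B at 0.13.

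In the stalk the member with the lowest level of all rose. AT2G40010, a P0 gene, stood at 3.46, 2.03 and 1.86 RPKM in Col-0 and at 5.69, 5.44 and 5.24 RPKM in tt7-7, on 41 to 162 reads per library. Every tt7-7 value was above every Col-0 value. The log2 fold change of 0.93 (SE 0.19, limma adjusted p 0.00235) was the largest of any member. It lay at the 79.1st percentile of all tested genes. The call was lost only under quantile normalization (0.35, limma adjusted p 0.075) among the 18 alternatives in which the gene was tested. The transcript overlaps AT2G40008, a non-coding RNA gene on the opposite strand, over 42.0% of its 50-base windows. Whether counting used strand is not given in the sources used here, so reads of the pair cannot be told apart. The other P0 genes, AT3G09200 and AT3G11250, were at -0.18 and -0.042. The RPP1 genes encode acidic stalk proteins. AT1G01100 was at -0.40 (limma adjusted p 0.0522), AT4G00810 at -0.29 and AT5G47700 at -0.15.

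The medians of small-subunit and large-subunit members differed little. The 21 small-subunit genes had a median log2 fold change of -0.25, with 1 called higher and 2 lower. The 26 large-subunit genes had a median of -0.14, with 0 higher and 1 lower by limma. Of them 3 had an unadjusted p under 0.05, beside at least 59.6% of all tested genes. The 6 stalk genes had a median of -0.17, with 1 higher and 0 lower. The difference of the small and large medians was -0.11, and it was 0.0045 under quantile normalization. Summed over members, small-subunit RPKM were 0.906, 0.917 and 0.959 times large-subunit RPKM in Col-0 and 0.893, 0.900 and 0.894 times in tt7-7. The 6 stalk genes were left out of both sums. All 3 tt7-7 ratios were below the Col-0 ratios, the nearest pair being 0.900 and 0.906, and the highest ratio was that of Col-0 replicate 3. Members are not replicates of a subunit, so no test was made.

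Paralogues of 1 family can be compared with less regard to scaling, because a ratio within a sample does not depend on a common factor. The log2 ratios here were of RPKM + 1, so those of low paralogues depend somewhat on scale. Quantile normalization and trend removal are not common factors. In 18 families with 2 or 3 measured members, each member was set against the member with the highest mean level, which gave 24 pairs. In 13 pairs (54.2%) the log2 ratios did not overlap between genotypes. In 85 such pairs from 48 cytosolic ribosomal protein families with no member here, 52.9% did not overlap, so the share was close to that background. The paralogue with the lower level gained relative to the higher in tt7-7 in 19 of the 24 pairs and in 49 of the 85. The median difference of the log2 ratio was 0.20 in the members and 0.086 in the other families. For each pair named below as not overlapping, an exact permutation test (two-sided) gave 0.1, the smallest p that 3 against 3 samples allow.

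The widest shift between abundant paralogues was in the RPS3 family. AT3G53870 made up 45.2%, 46.7% and 49.4% of the family's summed RPKM in Col-0 and 36.7%, 35.7% and 35.7% in tt7-7. AT2G31610 went from 28.3%, 27.9% and 26.7% to 33.04%, 35.4% and 32.0%, and AT5G35530 from 26.5%, 25.4% and 23.9% to 30.2%, 28.9% and 32.3%. The 3 genes were thus nearly equal in tt7-7, whereas in Col-0 AT3G53870 stood well above both others. The log2 ratio of AT2G31610 to AT3G53870 differed by 0.66 and that of AT5G35530 by 0.65. Pairwise coding identity in the family was 83.5% to 90.4%, and at most 0.377% of the transcript windows of any of the 3 genes were shared.

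In the RPL5 family RPL5B was 43.1%, 41.1% and 38.8% of the sum in Col-0 and 50.1%, 47.4% and 49.0% in tt7-7, so the pair was nearly even in tt7-7. The log2 ratio of RPL5B to ATL5 differed by 0.46. In the RPS28 family the gene RPS28 went from 46.4%, 51.8% and 51.6% of the sum to 41.8%, 37.8% and 43.2%. AT5G03850 went from 45.5%, 42.1% and 39.6% to 47.5%, 50.05% and 46.4%, which placed it above RPS28 in all 3 tt7-7 samples and below it in all 3 Col-0 samples. AT3G10090 went from 8.03%, 6.05% and 8.80% to 10.7%, 12.1% and 10.4%, a difference of 0.81 in its log2 ratio to RPS28. AT4G36130 of the RPL8 family went from 18.7%, 18.5% and 18.1% to 20.7%, 22.4% and 22.1%. Its log2 ratio to EMB2296 differed by 0.30.

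**Figure D3:**
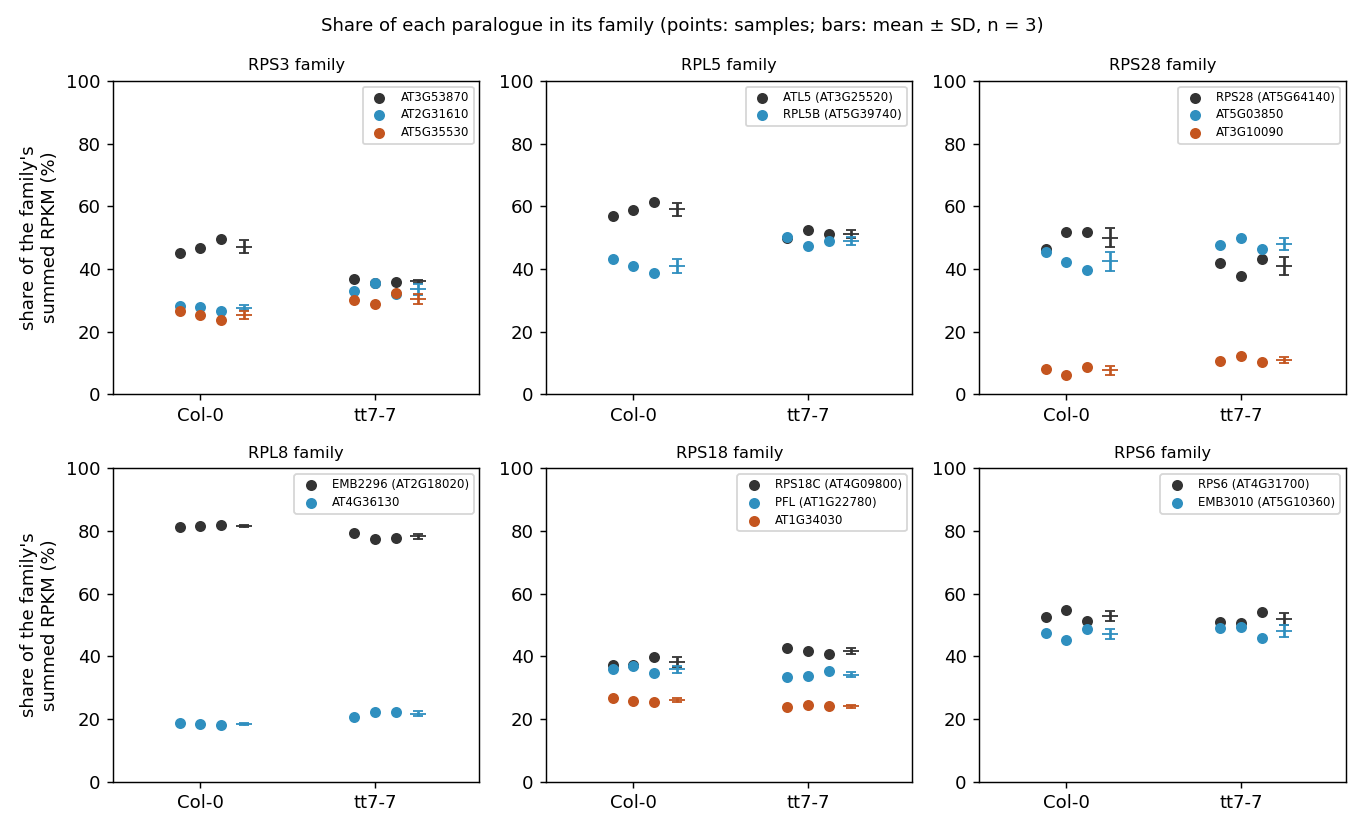
Share of each paralogue in the summed RPKM of its family (in percent) in each sample, by genotype, for 6 families; points are samples and bars the mean ± SD (n = 3). In RPS3 the share of AT3G53870 is 45.2% to 49.4% in Col-0 and 35.7% to 36.7% in tt7-7, in RPS28 the 2 abundant genes change order, and in RPS6 the genotypes overlap.

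In 5 pairs the lower paralogue had a level under 0.1 of the higher, and in 4 of them its ratio was higher in every tt7-7 sample. AT2G40010 was 0.553%, 0.289% and 0.361% of RPP0 RPKM in Col-0 and 0.925%, 1.04% and 1.04% in tt7-7, a difference of 1.11 in its log2 ratio to AT3G09200. RPL3B went from 3.20%, 2.76% and 2.55% to 4.66%, 5.46% and 4.08% of the RPL3 sum, a difference of 0.74. RPSAb went from 1.69%, 1.74% and 1.31% to 2.38%, 2.14% and 2.36% of RPSa, a difference of 0.53. RPL10B went from 2.55%, 2.43% and 2.23% to 3.69%, 3.48% and 2.92% of RPL10, a difference of 0.48. These 4 pairs did not overlap between genotypes. The remaining pair did: AT3G11250 was 7.64%, 7.23% and 7.36% of RPP0 in Col-0 and 7.61%, 8.57% and 7.96% in tt7-7, a difference of 0.14. Over the whole table, genes with a low level also had higher log2 fold changes, with a median of 0.58 under 10 RPKM, 0.39 from 10 to 100 RPKM and -0.18 at 100 RPKM or more. Across the 53 members the Spearman correlation of log2 fold change and mean level was -0.38, against -0.27 across all tested genes, which share libraries and are not independent. The part of level in these minor paralogues' gains was not tested.

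The other families showed smaller differences. The RPS18 family ran the other way, since RPS18C, the highest member, gained. RPS18C was 37.3%, 37.4% and 39.9% of the sum in Col-0 and 42.7%, 41.6% and 40.8% in tt7-7, and AT1G34030 went from 26.8%, 25.7% and 25.5% to 23.7%, 24.6% and 24.0%. The log2 ratios of AT1G34030 and PFL to RPS18C differed by -0.23 and -0.19, both without overlap. AT5G47700 went from 30.6%, 32.1% and 29.9% of the RPP1 sum to 32.3%, 36.1% and 33.9%, while its log2 ratio to AT1G01100 overlapped between genotypes, with a difference of 0.24. RPL23AB was 43.1%, 43.5% and 41.2% of its pair in Col-0 and 46.4%, 47.2% and 42.4% in tt7-7, with overlap. AT3G09630 was 48.3%, 49.9% and 51.3% of the RPL4 pair against 48.4%, 46.4% and 47.9%, also with overlap. AT2G36170 was 15.5%, 17.0% and 15.6% of the RPL40 pair against 17.4%, 16.7% and 16.8%. EMB3010 was 47.5%, 45.3% and 48.6% of the RPS6 pair against 49.0%, 49.4% and 45.7%. AT1G08360 was 46.7%, 50.3% and 47.6% of the RPL10a pair against 47.7%, 47.4% and 46.1%, and RPL24A was 43.3%, 42.8% and 40.1% of the RPL24 pair against 43.3%, 41.5% and 42.4%. The genotypes overlapped in all 4 of these pairs. In RPL9, PGY2 was 55.0%, 56.8% and 52.95% of the sum against 54.9%, 56.8% and 52.4%, and the log2 fold changes of the 3 genes lay within 0.070 of each other.

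Counts of called members depended on the scaling between samples. Median-ratio scaling, which moved the median of all tested genes to -0.029, gave 43 members lower and 1 higher, where it called 53.9% of all tested genes, 27.6% lower and 26.3% higher. Scaling by the reads left once the 100 most-read genes were removed gave 27 lower and 1 higher, with 55.5% of all tested genes called, 14.8% lower and 40.7% higher. Quantile normalization gave 5 lower and 4 higher, with 48.3% of all tested genes called, 21.5% lower and 26.8% higher. With each sample's trend on transcript length removed, 0 members were lower and 5 higher by limma, where 6.87% and 53.2% of all tested genes were, 60.1% in all. The median of the members was below that of all tested genes under each of these. The same 5 members were called with a pseudocount of 0.1 RPKM (59.2% of all tested genes called, 50.8% higher and 8.41% lower), a pseudocount of 0.5 RPKM (59.4%, 51.0% and 8.45%) and no filter on low values (60.4%, 52.0% and 8.4%). With the GC trend removed the counts were again 2 and 3 (59.5%, 51.2% and 8.28%), with UBQ1 called lower (-0.44, limma adjusted p 0.0364) and EMB2296 no longer called. With a filter at a mean of 10 RPKM, 1 of the 51 members left was higher and 3 lower, where 55.2% of all tested genes were called, 44.7% higher and 10.6% lower. A variance prior without trend gave 2 higher and 5 lower (59.5%, 51.0% and 8.47%), and voom on recovered reads 2 higher and 4 lower (59.1%, 50.8% and 8.38%). A fit with the replicate number as a block gave 4 higher and 9 lower (61.0%, 51.5% and 9.5%). Left-out samples mattered too. Without Col-0 replicate 3, 15 members were called lower and 1 higher, with a median of -0.28. In that fit 52.4% of all tested genes were called, 7.63% lower and the rest higher. Without Col-0 replicate 2, limma called 0 lower and 1 higher, where 51.1% of all tested genes were called, 6.6% lower and the rest higher. The 15 were 6 small-subunit, 7 large-subunit and 2 stalk genes. AT2G40010 was the member higher without Col-0 replicate 3, and AT3G53870 and EMB2296 were among the lower. Scaled to the members' own mean, 6 members were higher and 3 lower, with 62.8% of all tested genes called, 57.7% higher and 5.08% lower. Under that scaling RPL5B (0.53, limma adjusted p 0.00906), RPL3B (0.53, limma adjusted p 0.00733), AT2G31610 (0.33, limma adjusted p 0.0420) and RPL18 (0.32, limma adjusted p 0.0493) were called beside the 5 called on the deposited scale.

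**Figure D4:**
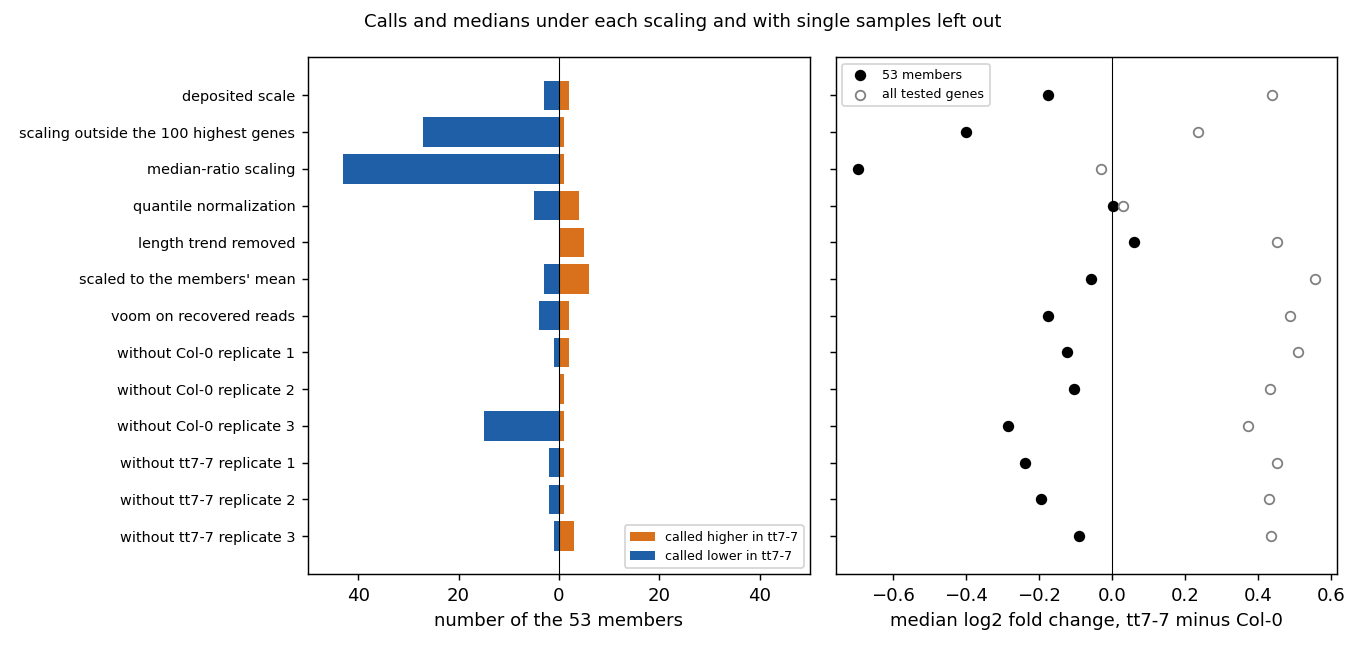
Left, number of the 53 members called higher (orange) or lower (blue) in tt7-7 at a limma adjusted p of 0.05 under each scaling and with single samples left out; right, median log2 fold change of the members (filled) and of all tested genes (open). Lower calls range from 0 to 43, and the members' median lies below that of all tested genes in each row.

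Other ribosome and translation genes were read from the same fit, where 51.1% of all tested genes were higher and 8.47% lower. Those shares were 26.3% and 27.6% under median-ratio scaling. They were 40.7% and 14.8% with scaling outside the 100 highest genes, and 53.2% and 6.87% with the length trend removed. The 155 tested cytosolic ribosomal protein genes outside the set, of 168 listed, had a median log2 fold change of -0.18, with 5 higher and 24 lower, close to the members' median. Median-ratio scaling gave 0 higher and 127 lower, scaling without the 100 most-read genes 1 and 85, and removal of the length trend 23 and 1. RPL18AA (AT1G29970) rose by 0.77 on the log2 scale, with levels of 15.1 ± 1.11 and 26.4 ± 1.09 RPKM (SD, n = 3). AT5G60670 fell by 0.66 (51.7 ± 9.42 against 32.1 ± 3.73 RPKM). Their limma adjusted p-values were 0.000802 and 0.00730. RPL18AA was not called under median-ratio scaling (0.27, limma adjusted p 0.106), nor AT5G60670 with the length trend removed (-0.39, limma adjusted p 0.0748).

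Plastid ribosomal protein genes, nuclear genes for the ribosome of the chloroplast, had a lower median than the cytosolic set. Of 36 tested 24 (66.7%) were called lower and 0 higher, with a median of -0.57. Of all tested genes 8.47% were lower and 51.1% higher. EMB3136 (AT5G13510) fell, at 62.8 ± 3.10 RPKM against 32.3 ± 1.68 RPKM (SD, n = 3), a log2 difference of -0.94 (limma adjusted p 0.000296). EMB3105 (AT1G48350) fell from 105 ± 3.35 to 55.9 ± 0.991 RPKM and AT3G54210 from 254 ± 36.7 to 129.9 ± 16.2 RPKM, with log2 fold changes of -0.89 and -0.96. With the length trend removed the 3 were at -0.62, -0.58 and -0.66, and under median-ratio scaling at -1.44, -1.41 and -1.48. Ribosome biogenesis genes, which make and assemble ribosomal RNA and subunits, lay close to all tested genes on the deposited scale. Of 28 tested 16 (57.1%) were higher and 0 lower, beside 51.1% and 8.47% of all tested genes. Their median was 0.51, beside 0.44 for all tested genes. Under median-ratio scaling 6 were higher and 9 lower, and the median was 0.018. AT3G11964, annotated as an RNA processing protein, rose by 1.495 on the log2 scale, MTR4 (AT1G59760), a helicase of RNA processing, by 0.99 and AT2G40360 by 1.05. With the length trend removed the 3 were at 0.53, 0.56 and 0.81, and under median-ratio scaling at 1.08, 0.53 and 0.55.

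The 25 translation factors had a median of -0.14, with 4 higher and 2 lower (24.0% called, beside 59.6% of all tested genes). Under median-ratio scaling 2 were higher and 18 lower. EIF4G (AT3G60240), a scaffold of translation initiation, rose, at 18.1 ± 3.45 RPKM against 50.3 ± 8.47 RPKM (SD, n = 3), a log2 difference of 1.43 (limma adjusted p 0.000246). The poly(A)-binding protein genes PAB2 (AT4G34110) and PAB4 (AT2G23350) rose by 0.84 and 0.72 on the log2 scale. Under median-ratio scaling PAB4 was at 0.21 (limma adjusted p 0.126), PAB2 at 0.33 and EIF4G at 0.93. With the length trend removed EIF4G was at 0.54 (limma adjusted p 0.0131). All 6 genes of a short TOR list were tested, and 5 were higher and 0 lower, with a median of 1.28. Of all tested genes 51.1% were higher and 8.47% lower. TOR (AT1G50030), the kinase itself, stood at 2.82, 2.43 and 2.25 RPKM in Col-0 and at 11.1, 14.5 and 10.7 RPKM in tt7-7. The log2 fold change was 1.89 (limma adjusted p 8.72e-05). Its partner RAPTOR1 (AT3G08850) rose by 1.54 and the S6 kinase gene PK1 (AT3G08730) by 1.02. Under median-ratio scaling 4 of the 6 were higher and 1 lower, and PK1 was at 0.52. With the length trend removed TOR was at 0.69 and RAPTOR1 at 0.73, and 5 of the TOR list were called higher, with a median of 0.78.

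**Figure D5:**
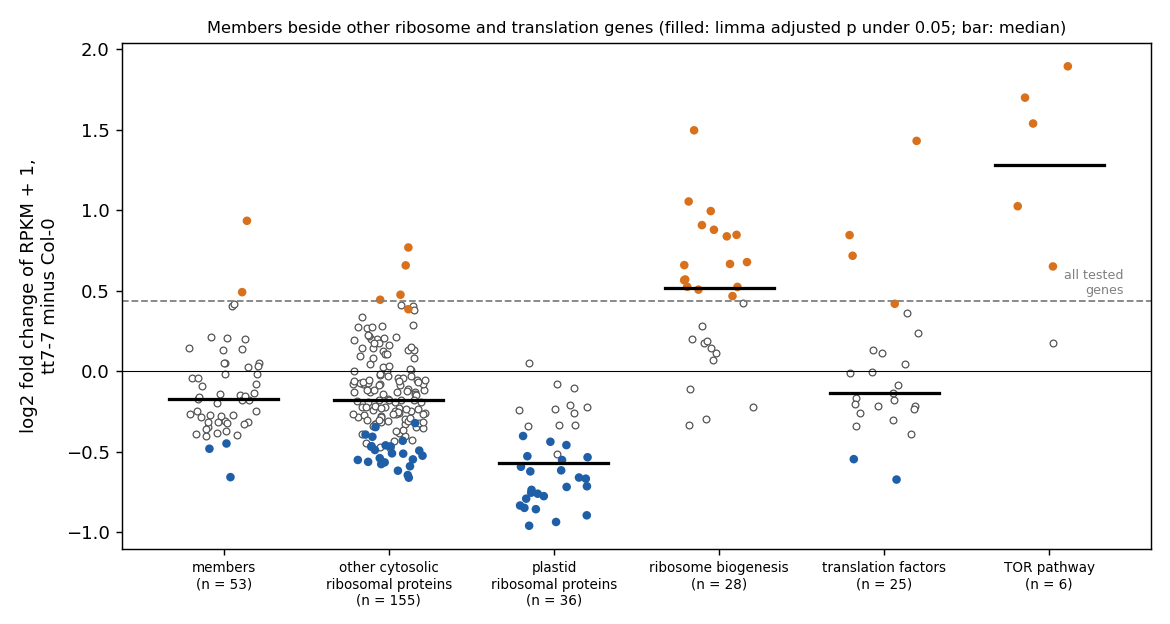
Log2 fold change of RPKM + 1, tt7-7 minus Col-0, of each tested gene in the members and in 5 other lists; filled points passed a limma adjusted p of 0.05, black bars are medians and the dashed line is the median of all tested genes (0.44). Members and other cytosolic ribosomal protein genes have medians of -0.18, plastid ribosomal protein genes lie lower (-0.57), and biogenesis genes (0.51) and the TOR list (1.28) lie higher.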

How the data were processed

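RNA was sequenced from seeds of 2 genotypes with 3 samples each, grouped by the sample titles. The authors deposited 1 table of RPKM for 16967 genes, named as filtered at a minimum of 2 RPKM. Per the submitters' processing notes the build was TAIR10 and cutadapt, FastQC, HISAT2, HTSeq and DESeq2 were used, with no roles or versions given; strandedness is not given in the sources used here. Names, lengths, GC content and sequences came from RefSeq TAIR10.1.

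Reads were recovered from the RPKM steps by taking the length of the longest transcript in RefSeq. They came out whole within 0.02 reads in all samples for 16855 genes (99.3%), and lengths of 112 were found by search. Members had 41 to 17225 reads per library.

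The test was limma 3.58.1 (R 4.3.3) with an intensity trend on log2(RPKM + 1) over all 6 samples, two-sided, for 16663 genes with a mean of at least 2 RPKM (304 were left out). P-values were adjusted by Benjamini-Hochberg over these genes, with a threshold of 0.05. Fold changes on this scale understate changes of low genes. The fit was tested on simulated data for tt7-7 against Col-0 over 16620 genes, where 100% of 200 genes changed 4-fold were recovered and 4.76% of calls were unchanged genes. No other genes were changed in that simulation, whereas 59.6% of all tested genes were called in the data. No member changed by 1 or more on the log2(RPKM + 1) scale of the main fit, so these rates do not apply to the member calls. Exact permutation tests over samples were two-sided, with a smallest p of 0.1.

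Replicates of a group differed by more than sampling noise (chi-square per degree of freedom 22.5 to 163). Members and gene lists were chosen with earlier results of these data known. Per-sample values are given for the 3 highest and 3 lowest members by level, the 4 most positive and 4 most negative by log2 fold change, and within families for the paralogues whose ratio differed most; of other lists up to 3 genes past the threshold are named in order of p. Some of the genes these rules name are not reported here, and counts and medians over all members include them. Alternatives were other pseudocounts, filters, scalings and variance priors, removal of length or GC trends, voom on recovered reads, a replicate block and each sample left out. Scaling to the members' mean was added after seeing the data. Python 3.11.15 with pandas 2.3.3, numpy 2.4.6 and Biopython 1.88 was used for the remaining steps.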

Additional observations from a re-analysis of the deposited data

How the results depend on the processing

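The same 5 members were called, 2 higher and 3 lower, with pseudocounts of 0.1 or 0.5 RPKM and without a filter. Without the GC trend the counts were the same but UBQ1 replaced EMB2296, and the stricter filter at 10 RPKM left 1 higher. With median-ratio scaling there were 1 higher, 43 lower and a median of -0.69, scaling outside the 100 highest genes 1, 27 and -0.40, quantile normalization 4, 5 and 0.0018, and the length trend removed 5, 0 and 0.061. The variance prior without trend gave 5 lower, voom on recovered reads 4 lower and scaling to the members' mean 6 higher. The cause was not tested. Whether the replicate numbers pair the samples was not settled. Deviations of same-numbered samples correlated at 0.21, -0.19 and 0.48, the last being the highest of all pairs. Not every sample correlated best with its own number. Deviations from the mean of 3 samples are tied to each other, so these correlations cannot exclude a pairing. The fit with a replicate block gave 4 higher and 9 lower. With single samples left out, higher calls ranged from 1 to 3, lower calls from 0 (without Col-0 replicate 2) to 15 (without Col-0 replicate 3) and the median from -0.28 to -0.091. Of all tested genes 49.8% to 62.4% were called in those fits. The difference of small and large medians was 0.0045 under quantile normalization and -0.14 to -0.074 with single samples left out. Paralogue pairs without overlap numbered 13 to 16 and pairs in which the lower paralogue gained 18 to 20 with samples left out, and 13 and 19 with a pseudocount of 0.1 RPKM or recovered reads per length. Under median-ratio scaling 14 members went from above to below 0 and 0 the other way. Among those 14, PGY2 (-0.49), AT1G33120 (-0.46), PGY1 (-0.47), RPL24A (-0.47) and STV1 (-0.49) were called under median-ratio scaling only. AT3G10090 (-0.0058) was called in the main fit and in 12 of 19 alternatives, but not under that scaling. RPL5B (-0.10) and RPL3B (-0.080) were called in 4 of 19. AT5G35530 (-0.32), RPL18 (-0.31) and AT2G31610 (-0.31) were called in 2 of 19. RPL10B (-0.35), AT5G03850 (-0.37) and RPSAb (-0.32) were called in none. Depth limited the lowest members most, since AT2G40010 rested on as few as 41 reads. With 3 samples a group, a change that missed the threshold is not shown to be absent.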
